A study of Mus musculus with 4 samples.

Results

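The 78 mouse genes described here carry the symbols of mitochondrial ribosomal proteins. They were taken by symbol alone (Mrpl or Mrps, a number and at most 1 letter) from a table of 51826 genes, with no use of their values. All 78 passed the minimum set on low counts, a mean of 10 raw counts a library, which left 16734 genes to test in all. Rows of pseudogenes, which 3 of the genes have, fell outside the rule. RNA was sequenced from cultured dermal papilla cells (DPCs), the mesenchymal cells at the base of the hair follicle, and dermal sheath cells (DSCs), which line the follicle from outside. Both were grown in DMEM with serum from whisker follicles of EGFP-transgenic C57BL/6J mice aged 5 to 6 weeks, with the genotype labelled WT. Cells were compared at passage 3 (low passage) and passage 9 (high passage), which asks what repeated replating changes. Each of the 4 groups was 1 library, so no difference below has a replicate check and every comparison is of libraries, not of conditions. The labels give neither the number of animals behind a library nor a batch, and passage cannot be told apart from the time at which a library was made.

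The libraries held between 34981284 and 47604059 counts. Sox2, a dermal papilla marker, stood at 45.6 and 41.6 CPM (scaled counts relative to the size of the library) in DPCs at passage 3 and passage 9 and at 7.10 and 3.91 CPM in DSCs. Pairs of values are given for passage 3 first and passage 9 second throughout. Of the other papilla markers, Alpl and Corin had at most 23 counts in any library. Lef1 was at 13.8 and 0.0558 CPM in DPCs and at 2.67 and 1.21 CPM in DSCs. Vcan was at 112 and 96.1 CPM in DPCs and at 139 and 64.0 CPM in DSCs. Ncam1 was higher in DSCs (310 and 342 CPM) than in DPCs (99.0 and 46.7). Summed, the 6 papilla markers were lower in DPCs (271 and 185 CPM) than in DSCs (460 and 412 CPM). Acta2, the smooth muscle actin that marks the sheath, was at 7127 and 1872 CPM in DPCs and at 5731 and 4333 CPM in DSCs, so it did not separate the cell types at passage 3. Of 4 keratinocyte markers Krt14, Krt5 and Krt1 had 0 counts in every library and Krt10 had 33 to 61. Of 4 melanocyte markers Mlana, Dct and Tyr had 0, and Pmel had 17 and 36 counts in DPCs and 33 and 47 in DSCs. The 3 skeletal muscle markers had at most 11 counts. The 3 immune markers summed to between 4.68 and 17.9 CPM and the 3 endothelial markers to between 0.112 and 2.48 CPM, each lower at passage 9 in both cell types. The 3 Schwann cell markers summed to 2.86 and 2.68 CPM in DPCs and 7.97 and 1.93 CPM in DSCs, among them Sox10 with 28 and 116 counts at passage 3 and 0 at passage 9. The part of these cells in the differences below was not tested. In RNA from bulk cultures, fewer cells that express a gene and less RNA per cell cannot be told apart.

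Mitochondria translate the few proteins that their own genome encodes, all of them subunits of the respiratory chain and ATP synthase, on ribosomes of bacterial descent. The ribosomal RNAs come from mitochondrial DNA, whereas every ribosomal protein is encoded in the nucleus, made in the cytosol and imported. Some of these proteins have a bacterial counterpart and others were added in the mitochondrial lineage. Of the 78 genes, 51 encode proteins of the large subunit, among them Mrps30 and Mrps18a despite their names, and 26 encode proteins of the small subunit. The remaining gene, Mrps36, encodes a component of the 2-oxoglutarate dehydrogenase complex and not of the ribosome. It stays in all counts because the choice was made by symbol.

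Abundance per transcript length was judged from the deposited FPKM (fragments scaled by transcript length and sequencing depth). Mrps6, a small-subunit protein with a bacterial counterpart, had the highest mean FPKM of the members, with 117 and 128 FPKM in DPCs and 67.1 and 79.2 FPKM in DSCs at passage 3 and passage 9. Mrpl42, Mrpl52 and Mrpl20 followed with mean values of 60.5, 59.6 and 52.5 FPKM. The median of the 78 genes was 19.5 FPKM in DPCs at passage 3, 13.8 at passage 9, and 16.9 and 14.3 FPKM in DSCs. The order was much the same in every library, with a lowest Spearman's rho of 0.870 among the 6 pairs of libraries, a description across genes that share libraries. Mrpl53 was the lowest at 1.18 to 2.58 FPKM and 37 to 82 counts, while every other member had between 251 and 4234 counts. Mrpl53 shares 88.0% of its exonic bases with Gm42688 on the same strand, so its counts are uncertain.

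**Figure D1:**
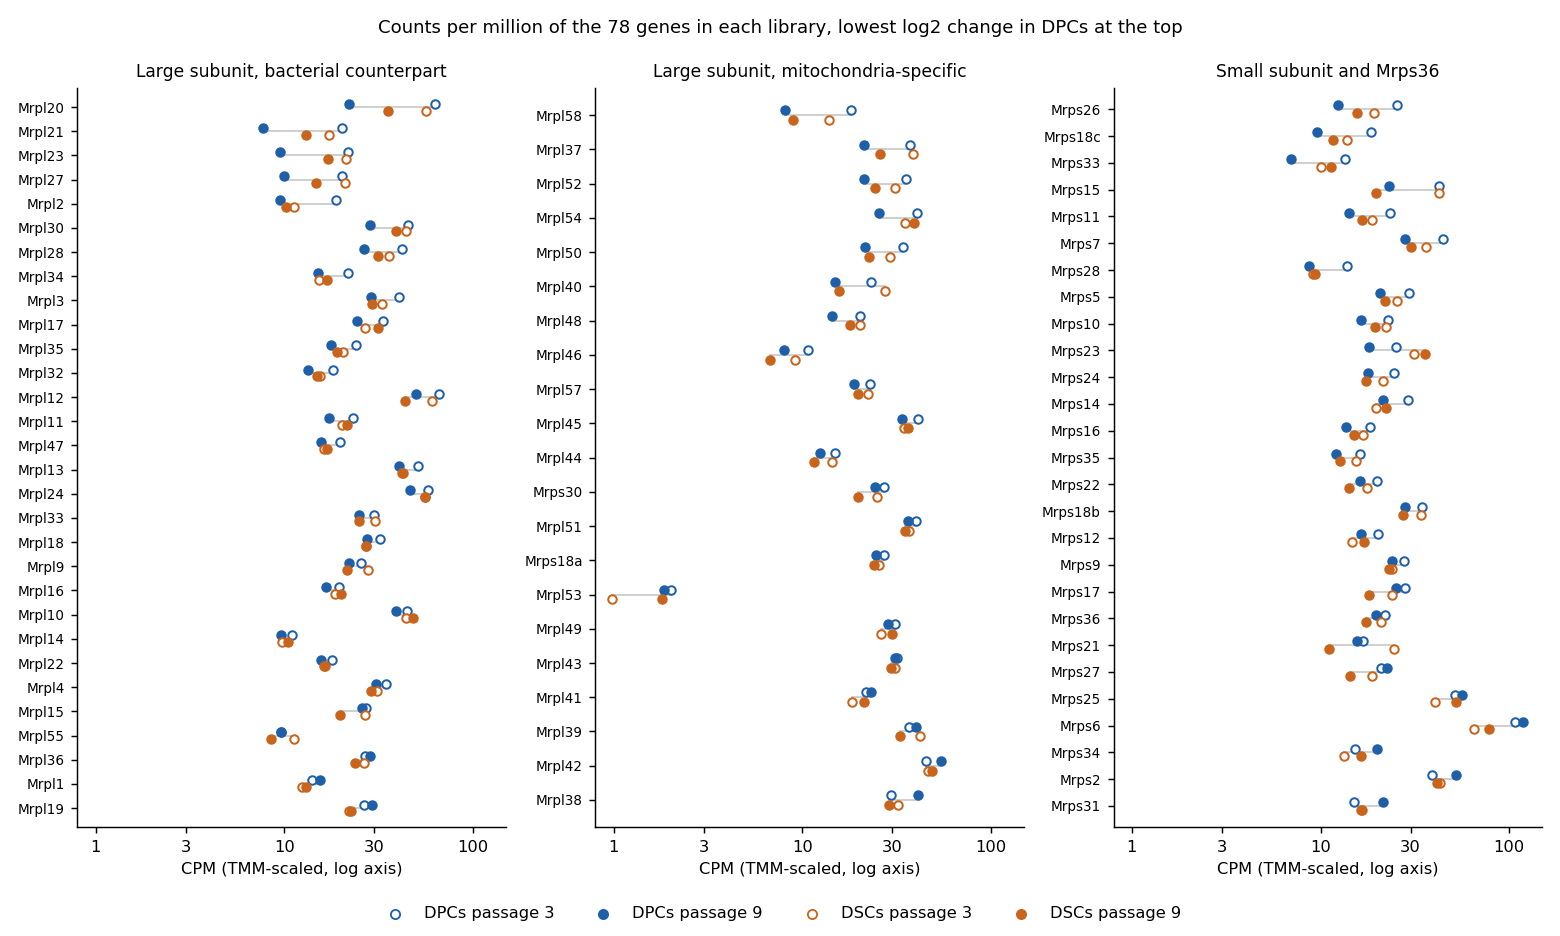
Scaled CPM (log axis) of the 78 genes, 1 line per gene, in DPCs (blue) and DSCs (orange) at passage 3 (open) and passage 9 (filled), with 1 library a point and no error bars. In most lines the filled blue point lies left of the open blue one, while Mrps31, Mrpl38 and Mrps2 at the foot of the panels show the opposite order.

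With passage in DPCs, the genes were lower as a group by a modest amount. Their median log2 change, passage 9 over passage 3, was -0.32, with the middle 50% between -0.60 and -0.14, while the median of all 16734 tested genes was 0.03 with the middle 50% between -0.60 and 0.63. Below 0 were 65 of the 78 members (83.3%), beside 48.5% of all tested genes. The summed CPM of the members went from 2261 to 1838, a drop of 18.7%. At least 1.5-fold lower were 20 members (25.6%), which is the share of all tested genes that fell as far (25.6%). At least 1.5-fold higher was no member, where 26.5% of all tested genes were. Beside the table as a whole, the members thus had an empty upper side and a narrower middle 50%, with a like share of falls. At the 2-fold level, 6 members (7.69%) were lower and 0 higher, against 15.0% and 16.1% of all tested genes. At 4-fold no member was lower or higher, against 4.36% and 5.58%.

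The 6 genes that fell by at least 2-fold in DPCs were 5 of the large subunit and 1 of the small. Mrpl20 (chromosome 4, 155802878 to 155809975, GRCm38), the counterpart of an early-binding protein of the bacterial large subunit, stood at 62.8 CPM in DPCs at passage 3 and 22.1 at passage 9, and at 56.5 and 35.3 CPM in DSCs. It was thus lower at passage 9 in both cell types, and lowest in high-passage DPCs. Its log2 change was -1.51 in DPCs (95% counting interval -1.63 to -1.39) and -0.68 in DSCs (-0.77 to -0.59), which corresponds to 2.84-fold and 1.60-fold lower. These intervals are exact for the share of a library among the counts of a pair and cover counting error only.

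Mrpl21 had 20.1 and 7.75 CPM in DPCs at passage 3 and passage 9, and 17.2 and 13.1 CPM in DSCs. Mrpl23, the counterpart of a protein beside the exit tunnel, had 21.8 and 9.54 CPM in DPCs and 21.3 and 17.1 CPM in DSCs. Their log2 changes in DPCs were -1.37 (-1.58 to -1.18) and -1.19 (-1.38 to -1.01). For both, high-passage DPCs stood well below the other 3 libraries, and the changes in DSCs, at -0.39 and -0.32, were smaller.

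Mrpl58, which also acts as a peptidyl-tRNA hydrolase that frees stalled ribosomes, had 18.1 and 8.09 CPM in DPCs and 13.9 and 8.89 CPM in DSCs. Mrpl27, whose bacterial counterpart reaches into the peptidyl transferase centre, had 747 and 356 counts in DPCs and 794 and 669 counts in DSCs. Mrps26, a small-subunit protein without bacterial counterpart, had 25.3 and 12.4 CPM in DPCs and 19.3 and 15.7 CPM in DSCs. The log2 changes in DPCs were -1.16 for Mrpl58, -1.03 for Mrpl27 and -1.02 for Mrps26, and the passage 9 library was the lower in both cell types for each. Reads of Mrpl27 are less certain, since 26.9% of its 50-base windows occur in another gene.

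Next in the order of falls in DPCs were Mrpl2, a core protein of the peptidyl transferase centre, at -0.98, Mrps18c at -0.96 and Mrps33 at -0.94. Mrps15, the counterpart of a protein that binds the small ribosomal RNA early in assembly, had 42.2 CPM in both cell types at passage 3, and 23.2 in DPCs and 19.8 in DSCs at passage 9. Its log2 changes were -0.86 and -1.09, a fall in both. Mrpl40 and Mrpl58 also fell by at least 1.5-fold in both cell types. Mrpl40 had 23.0 and 14.9 CPM in DPCs and 27.5 and 15.6 CPM in DSCs. With Mrpl20, this made 4 members (5.13%) that were at least 1.5-fold lower in both, against 8.72% of all tested genes, and 0 that were higher in both, against 10.5%.

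A few members were higher at passage 9 in DPCs. Mrps31, a small-subunit protein specific to mitochondria, had 15.0 and 21.4 CPM in DPCs and 16.3 and 16.6 CPM in DSCs, and its log2 change in DPCs was 0.51 or 1.43-fold (counting interval 0.36 to 0.68). Mrpl38, a protein of the central protuberance of the large subunit, had 29.6 and 40.8 CPM in DPCs and 32.1 and 28.7 CPM in DSCs. Mrps2, the counterpart of bacterial S2, had 39.2 and 52.0 CPM in DPCs and 43.1 and 41.5 CPM in DSCs. For each of these 3 genes high-passage DPCs were the highest library, and the change in DSCs was -0.16 to 0.03. Mrps34 was higher in both cell types, at 0.39 and 0.29, but 71.8% of its 50-base windows occur in another gene and Mapk8ip3 overlaps 63.4% of its exonic bases on the opposite strand. Mapk8ip3 itself went from 56.0 to 114 CPM in DPCs and from 61.7 to 69.7 CPM in DSCs, and its part in the value of Mrps34 was not tested.

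In DSCs the change with passage was smaller. The median log2 change of the members was -0.16, with the middle 50% between -0.32 and 0.07, beside a median of 0.00 over all tested genes. Below 0 were 52 of 78 members (66.7%), beside 49.7% of all tested genes. The summed CPM of the members went from 2034 to 1844, a drop of 9.37%. At least 1.5-fold lower were 5 members (6.41%; 14.0% of all tested genes), namely Mrpl20, Mrpl40, Mrpl58, Mrps15 and Mrps21. Higher by as much was Mrpl53 alone (1.28%; 16.7% of all tested genes), whose log2 change of 0.85 has a wide counting interval of 0.31 to 1.48. Lower by at least 2-fold were Mrps15 and Mrps21 (2.56%; 6.21% of all tested genes), and no member was higher by as much (8.55%). At 4-fold there was none in either direction, against 1.16% and 2.67%. Mrps21, a small-subunit protein with a bacterial counterpart, had 16.8 and 15.7 CPM in DPCs and 24.6 and 11.1 CPM in DSCs. Its low-passage DSC library was the highest and its high-passage DSC library the lowest, a log2 change of -1.14 in DSCs (-1.31 to -0.99) beside -0.10 in DPCs (-0.26 to 0.07).

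The other members at the ends of the order show how far the cell types could part. Mrps33, a small-subunit protein specific to mitochondria, had 495 and 251 raw counts in DPCs and 383 and 517 in DSCs, not scaled for library size. In FPKM it had 14.2 and 6.93 in DPCs and 9.95 and 10.8 in DSCs. Mrpl54, of the large subunit, had 40.7 and 25.4 CPM in DPCs and 35.1 and 39.2 CPM in DSCs. Mrpl2 had 18.7 and 9.51 CPM in DPCs and 11.2 and 10.2 CPM in DSCs. For the first pair high-passage DPCs stood alone as the lowest library, whereas for Mrpl2 low-passage DPCs stood alone as the highest. Mrpl12, a stalk protein that also binds the mitochondrial RNA polymerase, was lower at passage 9 in both, with 66.3 and 49.7 CPM in DPCs and 60.9 and 43.5 CPM in DSCs, or -0.42 and -0.49. Mrpl42 was higher in high-passage DPCs, with 45.3 and 54.3 CPM, and had 46.4 and 48.7 CPM in DSCs. Mrps25 had changes of 0.11 and 0.37, but Nr2c2 overlaps 69.8% of its exonic bases on the opposite strand. Mrpl15 and Mrpl46 were among the lowest in DSCs, at -0.44 and -0.43, with -0.07 and -0.41 in DPCs. Mrpl19 and Mrpl1, of the large subunit, were among the highest in DPCs at 0.15 (0.02 to 0.28) and 0.14 (-0.04 to 0.31). In DSCs they had 0.05 and 0.07. For Mrpl19, 37.0% of the 50-base windows occur in another gene and Gcfc2 overlaps 36.0% of its exonic bases on the opposite strand. Mrpl41 and Mrpl49 were among the highest in DSCs at 0.22 and 0.20, with 0.09 and -0.12 in DPCs. Mrps36, the gene that is no ribosomal subunit, had -0.15 in DPCs and -0.26 in DSCs.

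**Figure D2:**
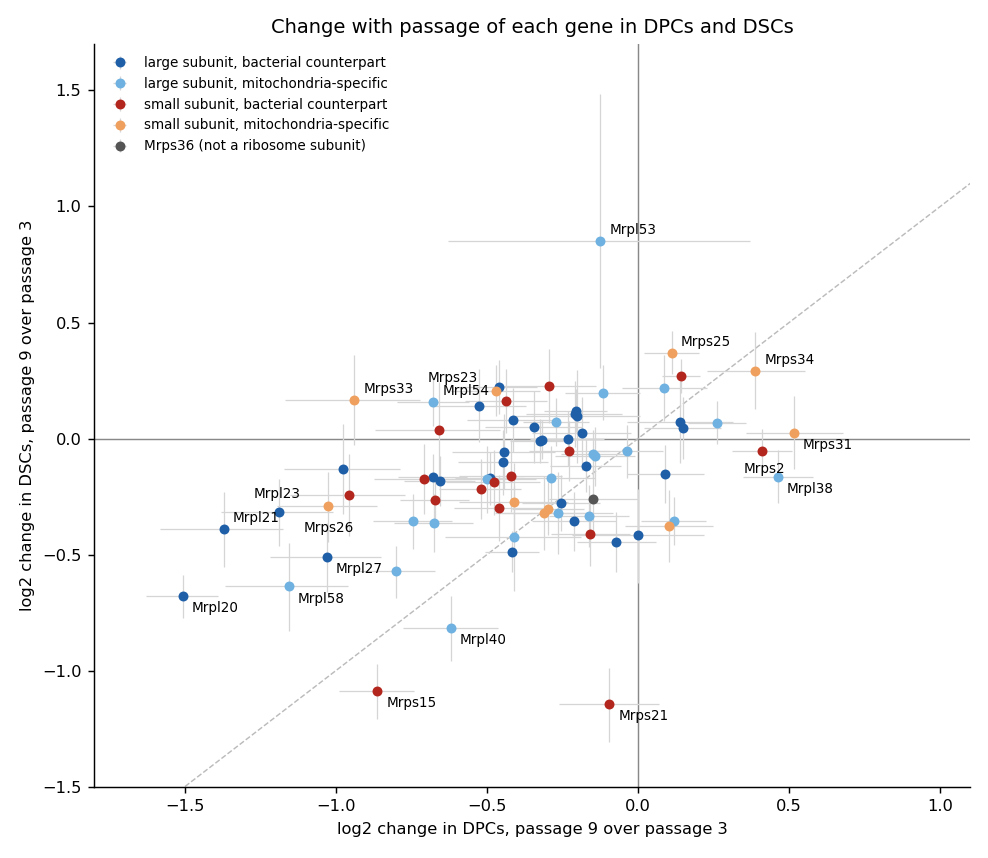
Log2 change from passage 3 to passage 9 in DPCs (horizontal) and DSCs (vertical) of each gene, coloured by subunit and descent, with 95% counting intervals as grey bars and equal change as the dashed line. Of the 78 points, 47 lie below 0 on both axes and 8 above 0 on both, and 52 lie left of the dashed line.

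Below 0 in both cell types were 47 members and above 0 in both 8, and 52 had the lower value in DPCs. The same counts were not made over all tested genes, of which 48.5% were below 0 in DPCs and 49.7% in DSCs. They are therefore not shown to be particular to the members. The median of the difference between the changes, DPCs minus DSCs, was -0.26. Pearson's r between the changes was 0.373 over the 78 genes (Spearman's rho 0.334), beside 0.496 over 13474 other protein-coding genes (0.530), a description across genes in the same 4 libraries. The counting intervals excluded 0 for 67 members in DPCs (85.9%), beside 77.6% of all tested genes and 83.2% of the 4103 other genes with counts like the members (mean 505 to 1709). In DSCs they did so for 54 (69.2%), beside 66.7% and 73.8%, so the shares were near the background. By direction, 58 lay below 0 and 9 above in DPCs (37.8% and 39.8% of all tested genes), and 42 below and 12 above in DSCs (32.9% and 33.9%). Even numbers were over-represented in the deposited counts, as happens where both mates of a pair are counted. With halved counts, the intervals of 57 and 43 members excluded 0 (73.1% and 55.1%, beside 69.1% and 55.9% of all tested genes).

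The only model that these libraries allow across passages has cell type and passage as terms, and takes its error from how far the cell types differ in their response. In edgeR's quasi-likelihood test with Benjamini-Hochberg adjustment, 0 members and 0.0% of all tested genes passed an adjusted p of 0.05. Unadjusted, the p was under 0.05 for 6 members that were lower at passage 9 (7.69%; 7.79% of all tested genes), which are Mrpl20, Mrpl27, Mrpl37, Mrpl40, Mrpl58 and Mrps15, and for 0 that were higher (9.07%). With DESeq2, 1 member passed at an adjusted p of 0.05, which was Mrpl20 at 0.0493 (adjusted p = 0.225 in edgeR), beside 5.71% of all tested genes. Mrps15 had an adjusted p of 0.209 in edgeR and 0.0615 in DESeq2.

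By structure, each group of members had a median below 0 in both cell types. In DPCs, 27 of 30 large-subunit proteins with a bacterial counterpart were below 0 (median log2 change -0.34), as were 17 of 21 large-subunit proteins specific to mitochondria (-0.27), 14 of 16 small-subunit proteins with a counterpart (-0.45) and 6 of 10 specific to mitochondria (-0.30). In DSCs the medians of the same groups were -0.11, -0.17, -0.18 and -0.12. The summed CPM of the large subunit went from 1496 to 1180 in DPCs and from 1376 to 1237 in DSCs, and that of the small subunit from 743 to 638 and from 637 to 590. The differences between these groups were not tested. The Mrps18 family shows the range within close relatives: in mammals it has 3 members, of which Mrps18c and Mrps18b sit in the small subunit and Mrps18a in the large one. Mrps18c had 18.5 and 9.54 CPM in DPCs and 13.8 and 11.7 CPM in DSCs. Mrps18b had 34.7 and 28.2 CPM in DPCs and 33.9 and 27.5 CPM in DSCs. Mrps18a had 26.9 and 24.4 CPM in DPCs and 25.5 and 24.1 CPM in DSCs. The log2 change in DPCs was thus -0.96 for Mrps18c, -0.30 for Mrps18b and -0.14 for Mrps18a, though Mrps18c overlaps Gm43511 over 23.2% of its exonic bases on the same strand and 30.2% of the windows of Mrps18b occur in another gene.

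Most of these transcripts are short, and short genes tended to be lower in high-passage DPCs. Transcript length was taken from the ratio of counts to FPKM, which gave a median of 1332 bases for the members (470 to 6059) and 3060 for other tested protein-coding genes. Among those other genes, split by length into 10 bins, the shortest (229 to 1310 bases) had a median log2 change in DPCs of -0.32 and the longest of 0.18. The 38 members in that shortest bin had a median of -0.42. Against the 6019 other protein-coding genes between 766 and 2913 bases, the 10th to 90th percentile of member lengths, the members were lower in DPCs (-0.32 against -0.08) and DSCs (-0.16 against -0.01). Those genes had a median length of 1953 bases against 1332 for the members, so this reference holds longer genes and is not matched on length. The middle 50% of those short genes in DPCs lay between -0.64 and 0.48, so that they share the lower edge of the members (-0.60) but not the upper one (-0.14). The 1875 short genes that also had counts like the members (mean 505 to 1709) were at a median of -0.10 in DPCs and of -0.02 in DSCs. Their median length, 1978 bases, was also above that of the members. After subtraction of the trend with length over all tested genes, the member median was -0.16 in DPCs and -0.09 in DSCs, and 12 members were at least 1.5-fold lower in DPCs (15.4%; 23.8% of all tested genes after the same correction) and 3 higher (3.85%; 26.4%). Within the members, longer transcripts had slightly higher values in DPCs (Pearson's r 0.258, Spearman's rho 0.227 with log2 length over 78 genes, as a description). Length therefore moved with the change in DPCs, and its part in the change of a given gene was not tested.

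**Figure D3:**
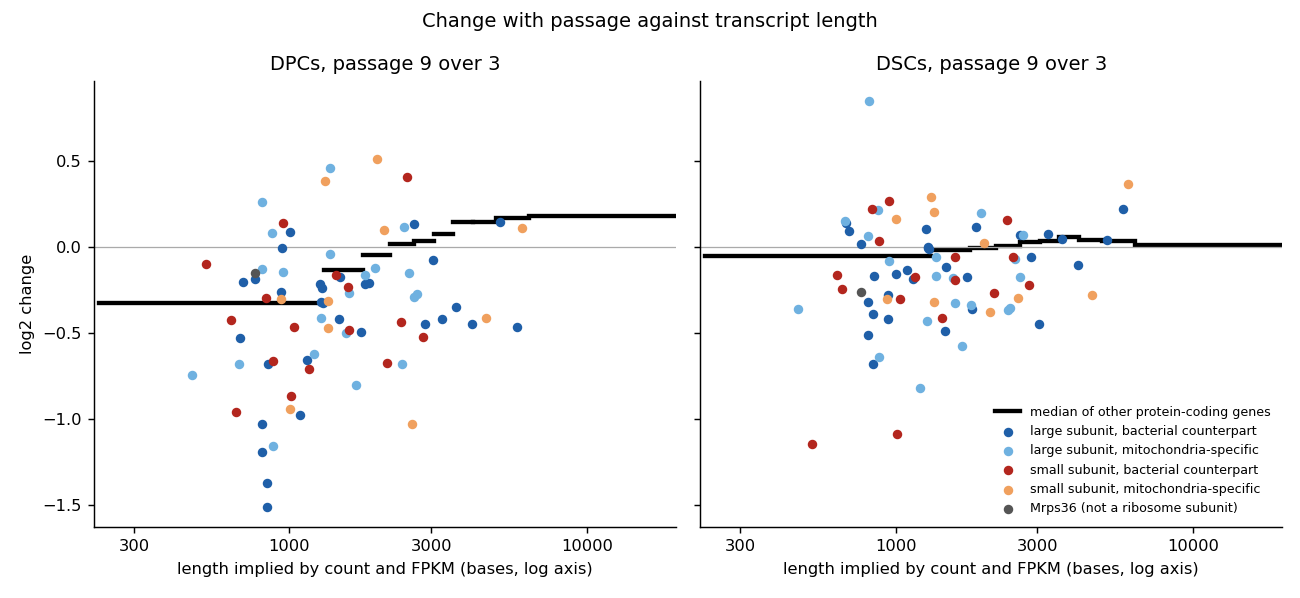
Log2 change with passage in DPCs (left) and DSCs (right) against the transcript length implied by count and FPKM (log axis), with the 78 genes as points and the median of other protein-coding genes in 10 length bins as black bars. In DPCs the bars climb from -0.32 in the shortest bin to 0.18 in the longest, and the members lie mostly below them except in the shortest bin, where they scatter around the bar.

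The cytosolic ribosomal proteins, which are also short and form the other ribosome of the cell, fell further by their median. Their median log2 change in DPCs was -1.17 over 81 genes, of which 77 were at least 1.5-fold lower (95.1%; 25.6% of all tested genes). In DSCs the median was -0.27, and 2 genes were at least 1.5-fold lower (2.47%; 14.0% of all tested genes and 6.41% of the members). The member median thus lay between those of all genes and of the cytosolic set in both cell types.

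**Figure D4:**
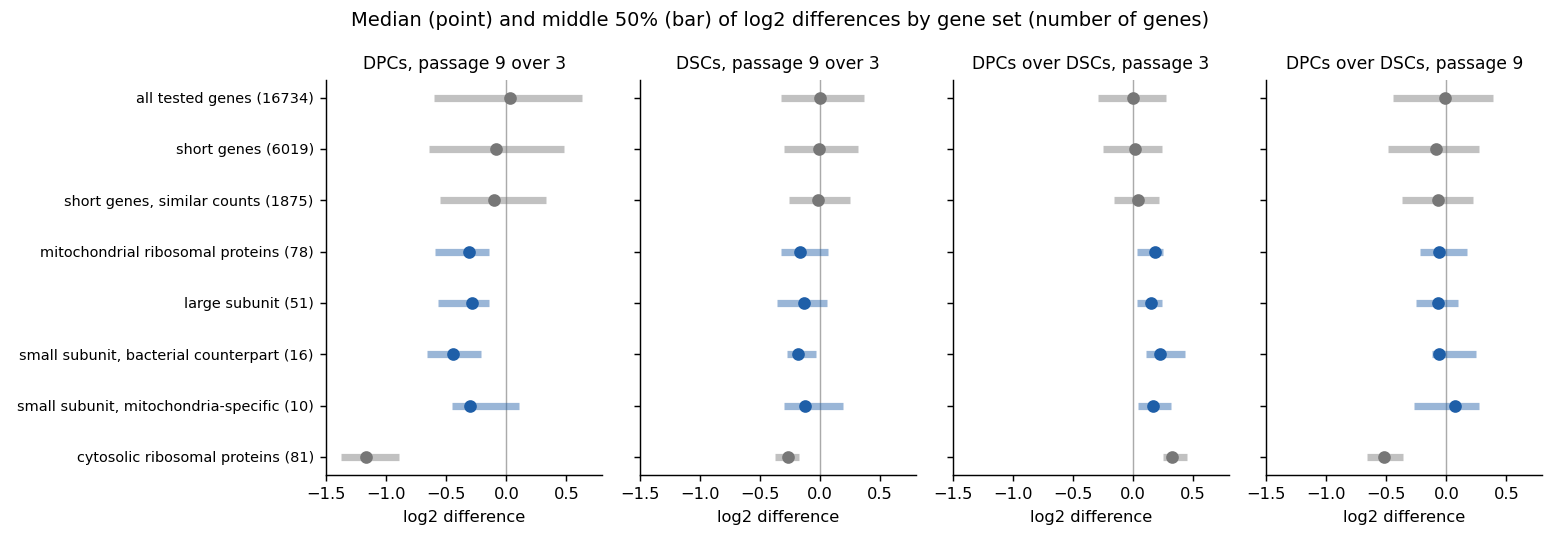
Median (point) and middle 50% (bar) of the log2 differences in 4 comparisons, for all tested genes, short genes, the 78 mitochondrial ribosomal protein genes and their groups, and cytosolic ribosomal proteins, with the number of genes in brackets. The member medians are -0.32 and -0.16 with passage in DPCs and DSCs, 0.18 between cell types at passage 3 and -0.06 at passage 9.

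Between cell types at passage 3, the members were slightly higher in DPCs. The median log2 difference, DPCs over DSCs, was 0.18 with the middle 50% between 0.04 and 0.25, and 65 of 78 members were above 0, beside a median of 0.00 over all tested genes and 0.02 over short genes. At least 1.5-fold higher in DPCs were Mrpl2, Mrpl53, Mrps28 and Mrps6 (5.13%; 11.9% of all tested genes), and 0 members were lower by as much (14.1%). Mrpl2 had 18.7 CPM in DPCs and 11.2 in DSCs, a log2 difference of 0.74 (0.57 to 0.92). Mrps6 had 107 and 65.1 CPM, a difference of 0.72 (0.65 to 0.79). Mrps6 shares 19.9% of its exonic bases with Slc5a3 on the same strand, a sodium/myo-inositol transporter gene that stood at 204 CPM in DPCs and 94.2 in DSCs, and the part of Slc5a3 reads in Mrps6 was not tested. Mrps28 had 13.8 and 9.13 CPM, a difference of 0.59 (0.39 to 0.79). Among the 5 lowest was Mrpl55, with 353 counts in DPCs and 428 in DSCs, a difference of -0.23 (-0.44 to -0.03).

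At passage 9 the median was near 0. It was -0.06, with the middle 50% between -0.22 and 0.17 and 43 of 78 members below 0, beside -0.01 over all tested genes and -0.09 over short genes. With total counts it was 0.04 and with FPKM plus 0.1 it was 0.05. These scalings moved the median of all tested genes to 0.08 and 0.09, so the members lay below that median by about as much. With FPKM plus 1 the members lay closer to it, at 0.047 against 0.058. At least 1.5-fold lower in DPCs were Mrpl20, Mrpl21, Mrpl23, Mrpl54, Mrps23 and Mrps33 (7.69%; 19.7% of all tested genes), and higher Mrps27 and Mrps6 (2.56%; 17.6%). Mrps23, a small-subunit protein specific to mitochondria, had 18.1 CPM in DPCs and 35.9 in DSCs, a log2 difference of -0.98 (-1.12 to -0.85), after 25.1 and 31.1 CPM at passage 3. Mrps27, a pentatricopeptide repeat protein of the small subunit, had 22.4 and 14.4 CPM, a difference of 0.63 (0.49 to 0.79), after 20.9 and 18.8 CPM at passage 3. Mrps6 remained higher in DPCs, at 118 and 78.5 CPM. These comparisons share libraries with those of passage, so their values stand side by side and are not independent.

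FPKM and counts gave nearly the same change for most members, with a median absolute gap of 0.03 on the log2 scale. For 7 members the length implied by counts and FPKM varied by more than 1.3 times between libraries. The largest of these, chosen after its values were seen, was Mrps17, which had 1031, 901, 906 and 819 counts in DPCs at passage 3 and passage 9 and DSCs at passage 3 and passage 9, but 27.4, 12.5, 22.6 and 11.0 FPKM. Its log2 change was -0.16 and -0.41 by counts and -1.12 and -1.03 by FPKM, so that the length implied by counts and FPKM differed 1.99 times between its shortest and its longest. Mrpl58 changed by -1.16 and -0.64 by counts and by -1.58 and -1.18 by FPKM. Which transcripts the authors' FPKM weighed is not given in the sources used here. By FPKM, 26 members were at least 1.5-fold lower in DPCs (33.3%; 25.0% of all tested genes by FPKM), 19 of which were also so by counts, and 2 were higher, Mrps2 and Mrps31 (2.56%; 25.0%).

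Promoters of these genes are known for sites of nuclear respiratory factor 1 (NRF1), the ETS factor GABP and YY1, which tie genes of the mitochondrion together. The windows from 250 bases before to 50 after the start of the gene, from RefSeq on GRCm38.p6, were found for 69 of the 78 members (75 windows, since 3 members had several starts). Searched on both strands were CCGGAAG for ETS, GCATGCGC for NRF1 and AAGATGGC for YY1, of which the first can share its last letters AAG with the start of the third. The ETS letters were in 34.7% of member windows and in 8.86% of all 32851 windows, and in 16.2% of the 13244 windows of tested protein-coding genes. The NRF1 letters were in 10.7% (2.71% and 4.88%) and the YY1 letters in 16.0% (2.75% and 4.08%). The 26 members with the ETS letters had a median log2 change in DPCs of -0.37 and those without -0.32. The 8 with the NRF1 letters had -0.23 and those without -0.41, and the 12 with the YY1 letters -0.37 and those without -0.32. A match describes letters in a window and not a bound site. Shown are the windows of the 4 genes at least 1.5-fold lower in both cell types, because they moved together. Next come those of Mrpl37 for the YY1 letters and Mrpl17 for the NRF1 and ETS letters, with matches on either strand in capitals. All read 5′ to 3′ on the strand of the gene.
Mrpl20 (chr4:155802628-155802927, plus strand): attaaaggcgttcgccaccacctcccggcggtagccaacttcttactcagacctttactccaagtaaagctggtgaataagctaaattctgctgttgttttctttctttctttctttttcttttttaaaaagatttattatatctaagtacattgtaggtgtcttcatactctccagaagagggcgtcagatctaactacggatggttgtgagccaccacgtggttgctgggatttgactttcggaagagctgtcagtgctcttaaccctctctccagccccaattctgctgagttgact
Mrpl58 (chr11:115403502-115403801, plus strand): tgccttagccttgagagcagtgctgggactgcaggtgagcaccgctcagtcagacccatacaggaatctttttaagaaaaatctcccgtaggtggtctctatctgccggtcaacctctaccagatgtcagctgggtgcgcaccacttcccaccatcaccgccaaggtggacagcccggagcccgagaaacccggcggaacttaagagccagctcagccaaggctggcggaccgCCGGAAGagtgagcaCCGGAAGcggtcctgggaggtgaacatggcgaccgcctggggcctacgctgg
Mrpl40 (chr16:18876588-18876887, minus strand): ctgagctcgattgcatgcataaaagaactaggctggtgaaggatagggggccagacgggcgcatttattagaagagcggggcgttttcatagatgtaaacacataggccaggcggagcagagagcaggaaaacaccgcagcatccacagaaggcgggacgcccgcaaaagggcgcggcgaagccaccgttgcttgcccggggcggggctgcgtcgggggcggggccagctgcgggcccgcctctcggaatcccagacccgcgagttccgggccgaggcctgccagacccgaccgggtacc
Mrps15 (chr4:126046678-126046977, plus strand): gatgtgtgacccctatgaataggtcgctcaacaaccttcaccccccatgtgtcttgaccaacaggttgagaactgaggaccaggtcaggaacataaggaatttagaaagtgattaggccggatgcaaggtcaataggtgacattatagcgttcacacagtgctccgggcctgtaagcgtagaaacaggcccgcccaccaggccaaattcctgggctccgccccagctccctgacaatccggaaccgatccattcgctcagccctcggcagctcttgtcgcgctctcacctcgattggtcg
Mrpl37 (chr4:107066817-107067116, minus strand): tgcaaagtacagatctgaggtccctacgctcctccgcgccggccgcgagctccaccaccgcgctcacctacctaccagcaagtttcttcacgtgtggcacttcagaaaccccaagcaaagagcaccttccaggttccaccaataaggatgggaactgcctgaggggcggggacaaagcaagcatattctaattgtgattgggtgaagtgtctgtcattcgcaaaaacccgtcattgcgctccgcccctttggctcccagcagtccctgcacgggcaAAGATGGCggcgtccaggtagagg
Mrpl17 (chr7:105811038-105811337, minus strand): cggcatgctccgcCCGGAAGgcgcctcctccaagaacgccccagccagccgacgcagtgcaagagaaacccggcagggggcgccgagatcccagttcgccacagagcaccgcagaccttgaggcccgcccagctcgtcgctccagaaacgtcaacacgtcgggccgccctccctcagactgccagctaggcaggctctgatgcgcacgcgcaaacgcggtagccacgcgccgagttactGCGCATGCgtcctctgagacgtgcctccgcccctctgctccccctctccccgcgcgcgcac

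Of the 4 genes at least 1.5-fold lower in both cell types, Mrpl58 alone held any of these letters. It had 2 ETS matches close to the start, and Mrpl20, Mrpl40 and Mrps15 held none in this window. Mrpl37, with YY1 letters at the start, had 37.1 and 21.3 CPM in DPCs and 38.5 and 25.9 CPM in DSCs, log2 changes of -0.80 and -0.57. Mrpl17 had a change of -0.46 in DPCs and 0.22 in DSCs.

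Most of the regulators lay within 1.5-fold in both cell types, apart from the coactivators and Myc. Gabpa, the DNA-binding subunit of GABP, had log2 changes of -0.50 in DPCs and -0.19 in DSCs, Gabpb1 of -0.36 and -0.17 and Gabpb2 of -0.32 and -0.15. Nrf1 had -0.04 and -0.41, Yy1 0.09 and -0.09, and Esrra, an orphan nuclear receptor of mitochondrial genes, 0.23 and 0.12. Myc, a transcription factor of ribosome production, fell in both, with 1726, 781, 1940 and 1195 counts in DPCs at passage 3 and passage 9 and DSCs at passage 3 and passage 9, or -1.11 and -0.96. The coactivator Ppargc1b fell in both (-1.16 and -1.32) from low counts of at most 87. Its relative Ppargc1a had 4 and 64 counts in DPCs at passage 3 and passage 9. In DSCs it had 0 and 23 counts, which makes passage 9 at least 6.38-fold higher against a floor of 3 counts for the library at 0. The counting interval, which also covers the error of the 23 counts, begins at 4.78-fold. Pprc1, the third of this family, rose in DPCs (1350 to 2623 counts, 0.99) and fell in DSCs (3061 to 1498, -1.30).

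Of the regulators of mitochondrial transcription, Tfam had 0.02 and 0.43, Tfb2m -0.26 and -0.03, Polrmt 0.45 and 0.31 and Tefm -0.32 and -0.17. Over all 14 regulators the median was -0.15 in DPCs and -0.16 in DSCs, the latter also with Ppargc1a at its lower bound. In DPCs 2 were at least 1.5-fold lower and 2 higher (14.3% each; 25.6% and 26.5% of all tested genes), and in DSCs 3 were lower and 1 higher (21.4% and 7.14%; 14.0% and 16.7%).

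The rest of the translation machinery did not all follow the members. The shares of all tested genes to read its counts against are 25.6% at least 1.5-fold lower and 26.5% higher in DPCs, and 14.0% and 16.7% in DSCs. Of 5 further ribosomal proteins that carry other names, all were below 0 in DPCs (median -0.28) and the median in DSCs was -0.02. Aurkaip1, a late-joining small-subunit protein, had 1217 and 391 counts in DPCs and 1006 and 1415 in DSCs, or -1.60 and 0.23, and Dap3, a GTP-binding protein of the small subunit, -0.76 and -0.02. Among 24 assembly factors of the mitochondrial ribosome, 4 were at least 1.5-fold lower in DPCs (16.7%: Malsu1, Mtg2, Nsun4 and Tfb1m) and 2 higher (8.33%: Mettl17 and Noa1), with a median of 0.00, and in DSCs 0 were lower or higher with a median of -0.04. Among 15 translation factors and related proteins, 3 were lower in DPCs (20%: Lrpprc, Slirp and Tufm) and 3 higher (20%: Mtfmt, Mtrf1 and Mtrf1l), with a median of -0.12, and 0 in DSCs. Lrpprc and Slirp, which stabilise mitochondrial mRNA as a complex, had -0.86 and -1.24 in DPCs and -0.56 and 0.32 in DSCs. Among 22 mitochondrial tRNA synthetases and amidotransferase subunits, 3 were lower in DPCs (13.6%: Gars, Pars2 and Rars2) and 0 higher, with a median of -0.20. In DSCs 1 was lower and 1 higher (4.55% each, median -0.18). Gars, which charges glycine tRNA in both compartments, was the list's only gene past 1.5-fold in the same direction in both, at -1.28 and -0.59.

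Transcripts of the mitochondrial genome went the other way in DPCs. Of 15 of them, 11 were at least 1.5-fold higher at passage 9 (73.3%; 26.5% of all tested genes) and 1 was lower (6.67%; 25.6%), with a median of 0.83, and in DSCs 1 was higher and 0 lower, with a median of 0.22. The lower one was mt-Rnr1, the small ribosomal RNA, at -1.03 in DPCs and -0.46 in DSCs, and mt-Rnr2, the large one, had -0.18 and -0.03. The libraries were selected for polyadenylated RNA, and the part of that selection in the rRNA values was not tested. The gene past 1.5-fold in both cell types was mt-Atp6, which had 26099 and 175543 counts in DPCs and 31204 and 175870 in DSCs. Mitochondrial genes have nuclear copies, and reads shared with them make these values uncertain.

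**Figure D5:**
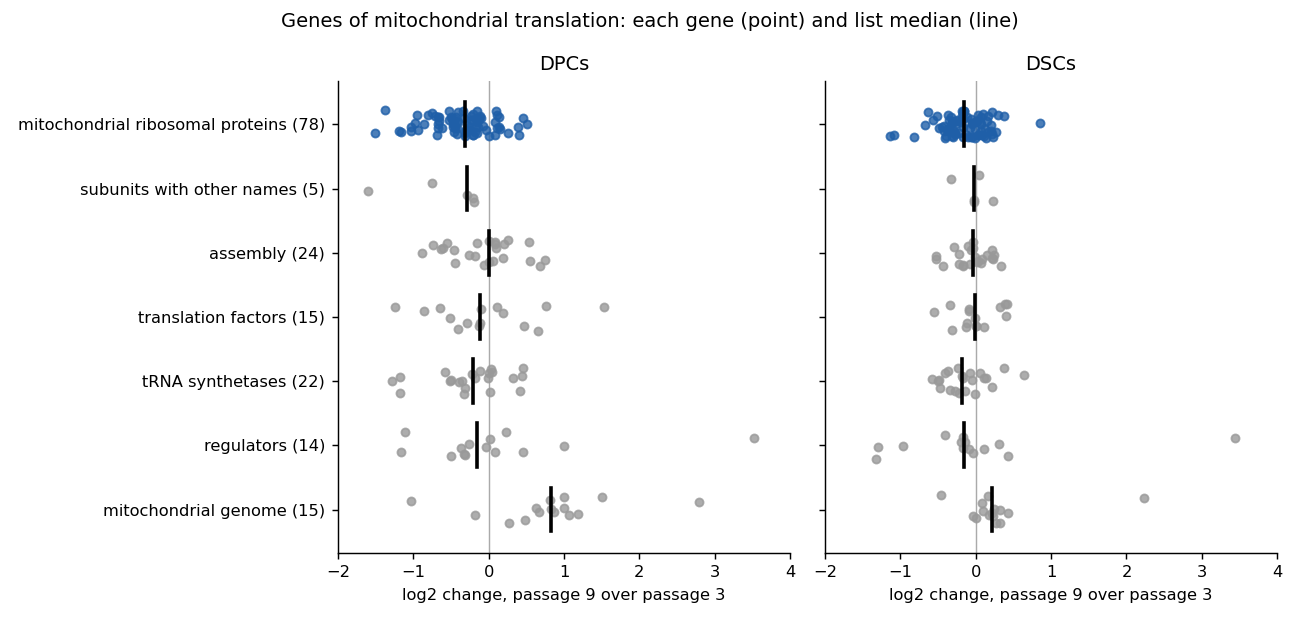
Log2 change from passage 3 to passage 9 of each gene (point) and the median of each list (line) in DPCs and DSCs, for the 78 genes, 5 further subunits, 24 assembly factors, 15 translation factors, 22 tRNA synthetases, 14 regulators and 15 genes of the mitochondrial genome. In DPCs the line of the 78 genes stands at -0.32 and that of the mitochondrial genome at 0.83.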

How the data were processed

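Reads were made, per the study's methods, from poly-T-selected RNA with a NEBNext Ultra kit and paired-end sequencing, while the labels name a TruSeq kit. The authors deposited raw counts per gene for all libraries in 1 table, and FPKM, which they scaled for transcript length and depth, for each library. The submitters' processing notes name Bowtie 0.12.2 and the builds mm8 and mm9, but the gene positions in the deposited table equal those of GENCODE M21 (GRCm38) for 68 of the 78 members, so coordinates are read as GRCm38. The counting program, its settings and its use of strand are not given in the sources used here, so reads of overlapping genes on opposite strands cannot be separated.

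Counts were scaled by TMM in edgeR 4.0.16 (R 4.3.3) and a change is the difference in log2 CPM (prior count 2). The minimum was a mean of 10 raw counts a library. With 1 library a group, a gene was called past 1.5-, 2- or 4-fold. Intervals were exact (Clopper-Pearson, 95%) for the share of 1 library in the counts of a pair. The additive fit had 1 residual degree of freedom and used edgeR's quasi-likelihood test, with DESeq2 1.42.0 as the alternative. The log2 changes, and not the calls of this fit, were checked on simulated counts in which both cell types changed alike with passage. That check cannot show how the fit performs where the cell types differ in their response. Transcript length was the count divided by FPKM and total count, averaged over libraries. Shared sequence was counted in 50-base windows and overlap in exonic bases of GENCODE M21, with 20% as the limit.

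The genes named are, in each cell type, the 10 members with the lowest and the 10 with the highest change, the 5 lowest and highest between cell types at each passage, any past 2-fold, the Mrps18 family, all regulators, and genes of other lists past 1.5-fold in both cell types. Others were named after their values were seen. The members, lists and tests were chosen with earlier results of these data known.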

Additional observations from a re-analysis of the deposited data

Results flagged for a closer look

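For 8 members the change with passage had opposite signs in DPCs and DSCs, with the counting intervals on opposite sides of 0. How many of all tested genes meet the same rule was not counted, so the 8 are not shown to be particular to the members. The difference between the cell types was not tested against replicates, since there are none. The values that follow are the change in DPCs minus the change in DSCs on the log2 scale. Lower in DPCs and higher in DSCs were Mrpl54 (-0.83), Mrpl17 (-0.68), Mrps23 (-0.68), Mrps14 (-0.60), Mrps12 (-0.52) and Mrpl10 (-0.33). Mrps12, the counterpart of a protein at the decoding centre, had 738 and 586 counts in DPCs at passage 3 and passage 9 and 555 and 780 in DSCs. Higher in DPCs and lower in DSCs were Mrpl38 (0.63) and Mrpl39 (0.47), both large-subunit proteins specific to mitochondria. Mrpl39 had 1355 and 1434 counts in DPCs and 1584 and 1489 in DSCs. The smallest of these changes were those of Mrpl39 in DPCs at 0.12 (0.01 to 0.23) and of Mrpl10 in DSCs at 0.12 (0.03 to 0.21). With halved counts the interval included 0 in 1 cell type for 4 of the 8, which are Mrpl10, Mrps12 and Mrps14 in DSCs and Mrpl39 in DPCs. By FPKM the change of Mrpl17 in DSCs was -0.09, where counts gave 0.22, so that its signs were no longer opposite. The change of Mrps14 in DSCs was 0.81 by FPKM and 0.16 by counts.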

How the results depend on the processing

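The member medians kept their sign with passage in DPCs (-0.41 to -0.16) and DSCs (-0.19 to -0.09) and between cell types at passage 3 (0.09 to 0.27) under every alternative of scaling, prior count, filter, unit, length correction, halved counts and choice of members that was run. A value counted as moved when it shifted by more than the typical half-width of a member's counting interval (0.14 in DPCs). By that measure the length correction moved the DPC median, to -0.16, and it changed the number of members at least 1.5-fold lower to 12 in DPCs and 3 in DSCs, and higher to 3 in DPCs. With FPKM plus 0.1, 2 members were higher in DPCs and 2 in DSCs, with FPKM plus 1, 2 were higher in DPCs, and with a mean count of at least 100, 0 were higher in DSCs because Mrpl53 was dropped. The median between cell types at passage 9 changed sign with total counts (0.038), FPKM plus 0.1 (0.049) and FPKM plus 1 (0.047). These scalings moved the median of all genes there from -0.01 to 0.08, 0.09 and 0.06. The short-gene reference changed sign where it was near 0: with genes up to the longest member it was 0.012 in DPCs, 0.015 in DSCs and -0.009 between cell types at passage 3, and with the longest annotated transcript 0.006 in DSCs and -0.000 between cell types at passage 3. DESeq2 in place of edgeR called 1 member with passage. Of the 78 changes of named members, 35 moved with the length correction, 19 with FPKM plus 0.1 and 17 with FPKM plus 1, and 0 under the other alternatives. With a mean count of at least 100 only 76 of the 78 could be compared, because Mrpl53 was dropped. Where not given, the cause was not tested. Without the 12 members over the limit for shared sequence or overlap, chosen after seeing the data, the medians were -0.41 in DPCs and -0.17 in DSCs. No paired analysis of replicates was possible because each group is 1 library. The only pairing is by cell type, which the additive fit has as a term. At these counts, with 1 library a group, the spread between cultures is unknown and a difference as small as most of these could not be told from it.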
